A study of Mus musculus with 12 samples.

Results

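The endoplasmic reticulum (ER) unfolded protein response genes described here are 10 genes chosen by name, Hspa5, Hsp90b1, Pdia4, Calr, Sdf2l1, Manf, Dnajb9, Herpud1, Atf6 and Xbp1. They were matched by symbol to the table of normalised read counts, which holds 51912 Ensembl gene IDs. All 10 were found and all 10 passed the filter on low values. The study sequenced total RNA from heart ventricles of mice in 12 libraries, 3 for each combination of genotype (wild type, WT, or LCHADD) and sex, with no treatment. LCHADD stands for deficiency of long-chain 3-hydroxyacyl-CoA dehydrogenase, the enzyme activity by which the mitochondrial trifunctional protein oxidises long-chain fatty acids. The labels give no allele, strain or age. They do not say whether the 3 libraries of a group come from separate animals, so p-values measure the spread between these libraries.

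The ER folds secreted and membrane proteins with the help of chaperones, of which BiP, the product of Hspa5, is the best known. When unfolded proteins build up, BiP leaves 3 sensors in the ER membrane, IRE1 (gene Ern1), PERK (Eif2ak3) and ATF6. ATF6 is then cut by proteases in the Golgi apparatus and raises chaperone genes, IRE1 splices the messenger of Xbp1 into a form that encodes an active transcription factor, and PERK phosphorylates eIF2alpha, which favours translation of ATF4. ATF4 is also reached by kinases that sense amino acid shortage, haem or mitochondrial trouble, so an ATF4 response does not by itself mean a load of unfolded protein in the ER. Gene-level read counts do not see the splicing of Xbp1, the cutting of ATF6 or the phosphorylation of eIF2alpha. The comparison of LCHADD with WT asks whether genes of ER folding change beside the amino acid stress genes.

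The libraries held 15613668 to 23174936 reads assigned to genes, and mitochondrially encoded genes took 27.5% to 32.7% of them in WT and 31.0% to 37.9% in LCHADD. The 8 cardiomyocyte markers summed to 1004430 to 1079240 in the 6 WT libraries and 549593 to 970802 in the 6 LCHADD libraries, on the scale of normalised read counts, while 5 atrial markers summed to at most 368. Of the cardiomyocyte markers 6 were lower in LCHADD in the mean of both sexes, as were 7 of 8 fibroblast, 5 of 6 endothelial, 4 of 5 tested mural, 4 of 5 tested B and plasma cell and 5 of 5 erythroid markers. Of all tested genes 20.6% were lower there. In females and males, in that order, 7 and 1 cardiomyocyte, 7 and 2 fibroblast and 4 and 4 endothelial markers were lower. For mural markers the counts were 1 and 3, for B and plasma cell 3 and 0, for erythroid 5 and 5. Of all genes 17.2% were lower in females and 7.77% in males. The erythroid markers, of red blood cells, had the sums 6969 to 12553 in the 6 WT libraries and 1913 to 4486 in the 6 LCHADD libraries, with WT female 3 the highest. Of 7 macrophage markers 3 were higher in females, where 16.7% of all genes were, and 0 in males. The macrophage sums overlapped, with 3118 to 4514 in the 6 WT libraries and 3079 to 5048 in the 6 LCHADD libraries. In bulk tissue, fewer cells of a type and less RNA per cell cannot be told apart.

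In LCHADD hearts 6 of the 10 genes differed from WT over both sexes, in opposite directions. The sensor gene Atf6, the degradation adaptor gene Herpud1 and the co-chaperone gene Dnajb9 were higher, whereas the chaperone genes Hspa5, Pdia4 and Calr were lower. In the mean of both sexes 3 of 10 genes rose and 3 fell at an adjusted p under 0.05 (limma, Benjamini-Hochberg over 13865 genes), where 20.3% of all tested genes were higher and 20.6% were lower. In females 2 rose and 3 fell, beside 16.7% higher and 17.2% lower among all genes. Scaling to nuclear reads gave 2884 higher and 1953 lower genes in females, against 2314 and 2378. In males 2 rose, with 7.71% of all genes higher, and 0 fell, with 7.77% of all genes lower. By edgeR and DESeq2, and at an unadjusted p under 0.05, 0 were lower in males too. With the males alone 1 was lower by limma (Calr, adjusted p = 0.036). In either direction 6 of 10 were called in the mean of both sexes (40.8% of all genes), 5 in females (33.8%) and 2 in males (15.5%), so the counts are not read as setting these genes apart. Their median log2 change in the mean of both sexes was -0.15, beside -0.0019 for all genes.

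Without regard to the fit, the 3 LCHADD libraries lay above the 3 WT libraries for Atf6, Herpud1 and Dnajb9 in each sex, where 22.2% of all genes did in females, 19.6% in males and 9.82% over all 12 libraries. They lay below for Hspa5 and Pdia4 in females (22.3% of all genes), for Calr in males (19.3%) and for 0 of the 10 over all 12 libraries (9.91%).

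**Figure D1:**
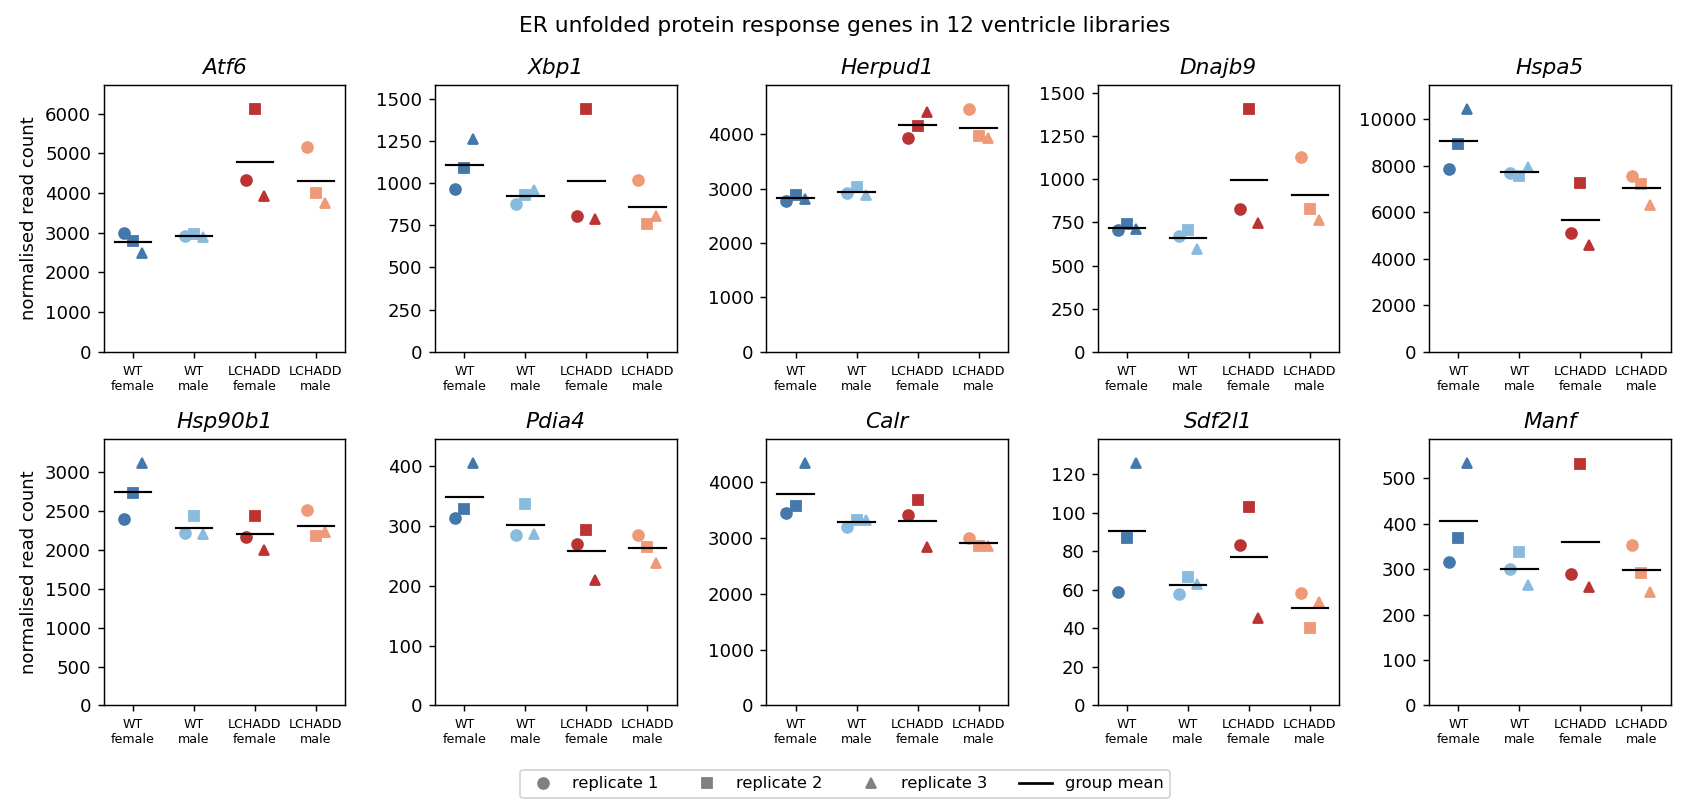
Normalised read counts of the 10 genes (vertical axis, from 0) in each of the 12 libraries, grouped by genotype and sex on the horizontal axis. Symbols mark the replicate number and the black line is the mean of 3 libraries. All 6 LCHADD libraries lie above all 6 WT libraries for Atf6, Herpud1 and Dnajb9, and for no gene do all 6 lie below.

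Promoters are shown for the 4 genes in which a known stress element was found, 3 chaperone genes and Herpud1. RefSeq promoter sequences (build GRCm38.p6) were matched for 8 of the 10 genes, with no entry for Atf6 and Manf. The 250 bases before each start site were searched on both strands for 4 elements. The ER stress element, ERSE, was searched as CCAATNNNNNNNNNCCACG, the element bound by ATF6 together with the CCAAT-binding factor NF-Y. The variant ERSE II was searched as ATTGG, any base and CCACG, the UPRE, an element bound by XBP1 and ATF6, as TGACGTGG, and the core of the C/EBP-ATF composite element (CARE) that ATF4 binds as TGATGNAA. Among 32851 promoter windows of the same length, 0.113% held the ERSE, 0.0304% ERSE II, 0.563% the UPRE and 3.45% the CARE core. Hspa5, Hsp90b1 and Calr held the ERSE, Hsp90b1 at 2 places, and Herpud1 held ERSE II and the CARE core. Dnajb9, Pdia4, Xbp1 and Sdf2l1 held none of the 4 in this window, and no element found overlapped another. A match is a run of letters and does not show binding. The windows are given 5′ to 3′ in the direction of the gene, ending at the base before the start site, with the fixed letters of the elements in capitals. That of Hspa5 is chr2:34771840-34772089 on the plus strand, with the ERSE from 65 to 47 bases before the start. That of Hsp90b1 is chr10:86705445-86705694 on the minus strand, with the ERSE from 212 to 194 bases and, on the opposite strand, from 107 to 89 bases before the start. That of Calr is chr8:84846932-84847181 on the minus strand, with the ERSE on the opposite strand from 162 to 144 bases before the start. That of Herpud1 is chr8:94386179-94386428 on the plus strand, with the CARE core on the opposite strand from 112 to 105 bases and ERSE II from 52 to 42 bases before the start.
Hspa5: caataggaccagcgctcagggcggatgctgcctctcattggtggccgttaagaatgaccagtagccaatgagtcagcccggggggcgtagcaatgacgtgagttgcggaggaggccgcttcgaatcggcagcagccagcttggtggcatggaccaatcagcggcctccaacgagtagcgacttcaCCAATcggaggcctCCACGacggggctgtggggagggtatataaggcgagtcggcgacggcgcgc
Hsp90b1: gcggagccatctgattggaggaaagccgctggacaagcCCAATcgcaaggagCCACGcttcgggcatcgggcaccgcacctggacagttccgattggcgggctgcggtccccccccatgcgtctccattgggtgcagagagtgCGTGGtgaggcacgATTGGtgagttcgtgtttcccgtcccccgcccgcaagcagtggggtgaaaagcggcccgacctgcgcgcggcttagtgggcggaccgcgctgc
Calr: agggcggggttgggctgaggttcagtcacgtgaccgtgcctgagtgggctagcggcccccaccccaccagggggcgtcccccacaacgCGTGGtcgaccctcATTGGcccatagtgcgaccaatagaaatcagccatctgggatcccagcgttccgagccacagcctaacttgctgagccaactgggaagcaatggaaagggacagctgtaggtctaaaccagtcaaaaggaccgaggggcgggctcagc
Herpud1: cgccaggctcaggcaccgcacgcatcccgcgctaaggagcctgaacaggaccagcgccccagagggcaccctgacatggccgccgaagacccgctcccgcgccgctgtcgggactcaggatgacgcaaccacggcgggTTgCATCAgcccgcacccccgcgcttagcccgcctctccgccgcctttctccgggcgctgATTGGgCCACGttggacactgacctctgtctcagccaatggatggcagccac

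Among the sensors and transcription factors, Atf6 (ENSMUSG00000026663), which encodes the membrane-bound factor that is cut to enter the nucleus, had normalised read counts, in the order of replicates 1, 2 and 3, of 2989, 2798 and 2495 (female WT) against 4326, 6109 and 3919 (female LCHADD), and of 2925, 2972 and 2887 (male WT) against 5167, 4001 and 3751 (male LCHADD). The genotypes did not overlap in either sex, and LCHADD female 2 and LCHADD male 1 were the highest of their groups. Atf6 rose 1.71-fold in females, a log2 change of 0.77 (SE 0.14, adjusted p = 0.00073), and 1.46-fold in males, 0.54 (SE 0.14, adjusted p = 0.017). In the mean of both sexes the log2 change was 0.66 (SE 0.10, adjusted p = 0.00011). In males the adjusted p was over 0.05 without WT male 1 (0.54, adjusted p = 0.056), without WT male 3 (0.53, adjusted p = 0.06) and without LCHADD male 1 (0.40, adjusted p = 0.098).

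Xbp1 (ENSMUSG00000020484), the target of IRE1's splicing activity, had normalised read counts of 962, 1089.9 and 1259.8 in the WT female libraries against 805, 1437 and 788 in the LCHADD female libraries, and 874, 927 and 960.0 in the male WT libraries against 1017, 756 and 807 in the male LCHADD libraries. LCHADD female 2 was the highest library of all 12, while LCHADD females 1 and 3 lay below all WT libraries, so the groups overlapped. Its log2 change was -0.18 (SE 0.18, adjusted p = 0.49) in females, -0.11 (SE 0.18, adjusted p = 0.74) in males and -0.14 (SE 0.13, adjusted p = 0.4) over both sexes. Without LCHADD female 2 the female log2 change was -0.46, adjusted p = 0.0052, and that in the mean of both sexes was -0.29, adjusted p = 0.0066. Without both that library and WT female 3, an alternative chosen after seeing the data, the female change was -0.36, adjusted p = 0.028.

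The gene of the sensor that splices Xbp1 had a larger log2 change than any of the 10. Ern1, which encodes IRE1, had normalised read counts of 362, 402 and 353 (female WT) against 982, 1509.8 and 1027 (female LCHADD), and of 379, 399 and 359 (male WT) against 879.6, 871 and 815 (male LCHADD). All LCHADD libraries lay above all WT libraries. Ern1 rose 3.09-fold in females, a log2 change of 1.63 (SE 0.13, adjusted p = 4.9e-07), and 2.25-fold in males, 1.17 (SE 0.13, adjusted p = 3.5e-05). Eif2ak3, which encodes PERK, had a log2 change of 0.25 (SE 0.11, adjusted p = 0.075) in the mean of both sexes and did not pass, and Atf6b, the paralogue of Atf6, had -0.0024 (SE 0.098, adjusted p = 0.99). Mbtps2, the site-2 protease that makes the last cut in ATF6, rose over both sexes, 0.43 (SE 0.091, adjusted p = 0.0017). Of 11 other sensors and processing factors, 2 rose in that mean (Ern1 and Mbtps2) and 0 fell, by limma's adjusted p, with a median log2 change of 0.11. The share that rose was near the 20.3% of all genes. The number that rose was 3 by DESeq2 and 5 with nuclear-gene scaling. At an unadjusted p under 0.05, and by edgeR and DESeq2, 0 fell as well. The abundant genes Tmbim6, an ER membrane protein that restrains cell death (0.11, SE 0.066, adjusted p = 0.19), and Wfs1, the ER protein lost in Wolfram syndrome (-0.16, SE 0.081, adjusted p = 0.12), did not pass.

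Herpud1 (ENSMUSG00000031770) encodes a membrane protein that gathers the ER-associated degradation complex, which returns misfolded proteins to the cytosol for the proteasome. It had normalised read counts of 2766, 2886 and 2804 in the WT female libraries against 3926, 4157 and 4403 in the LCHADD female libraries, and 2913, 3037 and 2877 in the male WT libraries against 4459, 3974 and 3928 in the male LCHADD libraries. The lowest LCHADD library, LCHADD female 1, lay above the highest WT library, WT male 2, and its SE was the smallest of the genes that rose. Herpud1 rose 1.48-fold in females, a log2 change of 0.56 (SE 0.070, adjusted p = 2.6e-05), and 1.40-fold in males, 0.48 (SE 0.070, adjusted p = 0.00031). In the mean of both sexes the change was 0.52 (SE 0.049, adjusted p = 1.1e-06). It passed in both sexes without any single library. Its promoter is the one of the 8 with both an ER stress element and the ATF4-type core.

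Dnajb9 (ENSMUSG00000014905) encodes ERdj4, a partner of BiP that is known as a target of XBP1. It had normalised read counts of 704, 740.5 and 709 (female WT) against 828, 1405 and 746 (female LCHADD), and of 671, 705 and 598 (male WT) against 1131, 825 and 761 (male LCHADD). The genotypes did not overlap in either sex, and LCHADD female 2 and LCHADD male 1 stood above the other LCHADD libraries. The log2 change of 0.41 (SE 0.19, adjusted p = 0.11) in females and 0.44 (SE 0.19, adjusted p = 0.13) in males did not pass, and that over both sexes passed, 0.43 (SE 0.13, adjusted p = 0.018). Without LCHADD male 1 the mean change was 0.34, adjusted p = 0.056. Without LCHADD female 2 the female change was 0.13, adjusted p = 0.47, the mean change was 0.29, adjusted p = 0.011, and the male change passed, 0.44, adjusted p = 0.0073, since all groups share 1 estimate of the spread. Without LCHADD female 3 the female change was 0.59, adjusted p = 0.018.

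Among the chaperones, Hspa5 (ENSMUSG00000026864), which encodes BiP, was the most abundant per kilobase in WT and had the largest fall of the 10 in females and over both sexes. It had normalised read counts of 7879, 8934 and 10431 in the WT female libraries against 5117, 7268 and 4609 in the LCHADD female libraries, and 7700.2, 7552 and 7952 in the male WT libraries against 7570.1, 7237 and 6310.2 in the male LCHADD libraries. In females every LCHADD library lay below every WT library, with WT female 3 the highest and LCHADD female 3 the lowest, and in males LCHADD male 1 lay within the WT range. Hspa5 fell to 0.616 of WT in females, a log2 change of -0.70 (SE 0.14, adjusted p = 0.0012). In males the log2 change of -0.14 (SE 0.14, adjusted p = 0.54) did not pass, and the mean of both sexes fell by 0.42 on the log2 scale (SE 0.098, adjusted p = 0.003). The cardiomyocyte and fibroblast marker sums were lower in LCHADD too, and the part of cell makeup in the falls of Hspa5, Pdia4 and Calr was not tested.

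Hsp90b1 (ENSMUSG00000020048) encodes GRP94, the HSP90 of the ER. It had normalised read counts of 2397, 2733 and 3121 (female WT) against 2167, 2434 and 2002 (female LCHADD), and of 2224, 2431 and 2203 (male WT) against 2510.5, 2186 and 2227 (male LCHADD). The female groups overlapped by LCHADD female 2, and the male groups overlapped. Hsp90b1 fell in females, -0.32 (SE 0.099, adjusted p = 0.022), and its log2 change was 0.012 (SE 0.099, adjusted p = 0.95) in males and -0.15 (SE 0.070, adjusted p = 0.096) over both sexes. The female call was lost without WT female 3 (-0.22, adjusted p = 0.12), WT female 2 (-0.32, adjusted p = 0.058), LCHADD female 1 (-0.31, adjusted p = 0.058) or LCHADD female 3 (-0.25, adjusted p = 0.068). Over both sexes it passed without WT female 1 (-0.20, adjusted p = 0.033) and without LCHADD female 2 (-0.19, adjusted p = 0.023). Exons of Hsp90b1 overlap those of the gene 1810014B01Rik on the opposite strand by 415 bases, and the use of strand in counting is not given, but that gene had at most 217.5 normalised read counts.

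Pdia4 (ENSMUSG00000025823), a protein disulfide isomerase, had normalised read counts of 313, 328 and 405 in the WT female libraries against 270.1, 292 and 209 in the LCHADD female libraries, and 284, 335 and 286 in the male WT libraries against 285, 264 and 238 in the male LCHADD libraries. The female groups did not overlap, and the male groups did. Pdia4 fell in females, -0.44 (SE 0.14, adjusted p = 0.024), and over both sexes, -0.32 (SE 0.099, adjusted p = 0.017), while the male change was -0.20 (SE 0.14, adjusted p = 0.36). In females the adjusted p was over 0.05 without WT female 3 (-0.33, adjusted p = 0.12) and without LCHADD female 3 (-0.30, adjusted p = 0.093). With the nuclear scaling the female values were -0.25, adjusted p = 0.081 for Hsp90b1 and -0.37, adjusted p = 0.058 for Pdia4.

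Calr (ENSMUSG00000003814) encodes calreticulin, a calcium-binding chaperone of glycoproteins. It had normalised read counts of 3446, 3569.6 and 4342 (female WT) against 3405, 3673 and 2835 (female LCHADD), and of 3198, 3320.5 and 3322 (male WT) against 2989.9, 2859.9 and 2854 (male LCHADD). Here the male groups did not overlap and the female groups did. Calr fell in the mean of both sexes by 0.19 on the log2 scale (SE 0.069, adjusted p = 0.041), and neither sex passed alone. The call was close to the threshold. It was lost when any of 8 of the 12 libraries was left out (the farthest being WT female 3, -0.14, adjusted p = 0.11), and with the nuclear scaling (-0.15, adjusted p = 0.13), no filter on low values (-0.19, adjusted p = 0.067) or the replicate number as a block (-0.19, adjusted p = 0.062). In females it passed without LCHADD female 2 (-0.28, adjusted p = 0.028).

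Sdf2l1 and Manf are small ER proteins that rise strongly under classical ER stress, Sdf2l1 as a partner of BiP's co-chaperones and Manf as a secreted survival factor. Sdf2l1 (ENSMUSG00000022769) had normalised read counts of 58.7, 86.7 and 126 in the WT female libraries against 83.1, 103 and 45.4 in the LCHADD female libraries, and 57.8, 66.6 and 63.1 in the male WT libraries against 58.4, 40.1 and 53.5 in the male LCHADD libraries. Its level per kilobase was the lowest of the 10 genes. Manf (ENSMUSG00000032575) had normalised read counts of 316, 368 and 534 (female WT) against 289, 531 and 261 (female LCHADD), and of 299.8, 338 and 265 (male WT) against 353, 292 and 249 (male LCHADD). For both genes the genotypes overlapped in females and in males, and WT female 3 and LCHADD female 2 were the highest libraries of their groups. The log2 change in the mean of both sexes was -0.27 (SE 0.21, adjusted p = 0.32) for Sdf2l1 and -0.12 (SE 0.17, adjusted p = 0.61) for Manf. Without LCHADD female 2 the change of Manf in females was -0.53, adjusted p = 0.031. Manf shares 146 exon bases with Dcaf1 on the opposite strand, a gene with up to 610.2 normalised read counts. The use of strand in counting is not given, so whether the reads of the pair were told apart there is not known. Manf also shares 14 bases with Rbm15b on the same strand (up to 371.1 normalised read counts). With 4930524O07Rik on the opposite strand it shares 166 bases (up to 2.99).

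**Figure D2:**
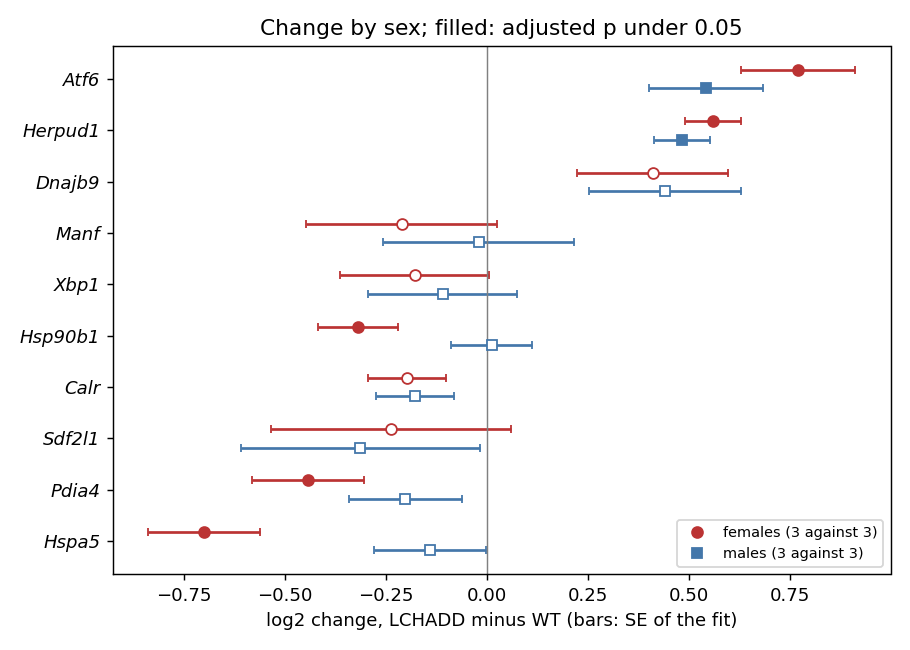
Log2 change of each of the 10 genes, LCHADD minus WT (horizontal axis), in females (circles) and males (squares), 3 libraries against 3, with bars of 1 SE of the limma fit. Filled symbols have an adjusted p under 0.05. Atf6 and Herpud1 pass in both sexes above 0, and Hspa5, Hsp90b1 and Pdia4 pass below 0 in females alone, which is no test of a difference between the sexes.

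The difference between the sexes was tested as the interaction of genotype and sex, and 0 of the 10 genes passed by limma, edgeR or DESeq2, with 2 at an unadjusted p under 0.05. Of all tested genes 0.00721% passed by limma, and 1363 of 13865 had an unadjusted p under 0.05. By edgeR 2 of all tested genes passed, and by DESeq2 104. The largest difference was that of Hspa5, whose log2 change was 0.56 lower in females than in males (interaction -0.56, SE 0.20, adjusted p = 0.36). Hsp90b1 followed with -0.33 (SE 0.14, adjusted p = 0.46). Without LCHADD female 2 the interaction of Hspa5 was -0.75, adjusted p = 0.047, and without that library and WT female 3 it was -0.65, adjusted p = 0.046. For Herpud1 the interaction was 0.077 (SE 0.099, adjusted p = 0.85).

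The libraries within a group differed for nearly all of these genes together. LCHADD male 1 was the highest LCHADD male for all 10 genes, and LCHADD female 2 the highest LCHADD female for 9 of 10, the exception being Herpud1. LCHADD female 3 was the lowest LCHADD female for 9, and LCHADD male 3 the lowest LCHADD male for 7. Among WT females, replicate 3 was the highest for 7 genes and replicate 1 the lowest for 9. Among WT males, replicate 2 was the highest for 7 and replicate 3 the lowest for 5. Such ranks were not counted over all tested genes, so they are not read as particular to these 10. LCHADD female 2 also had the lowest sum of cardiomyocyte markers, 549593 against 725769 and 831575 normalised read counts in LCHADD females 1 and 3, while its share of mitochondrially encoded reads was 31.0% against 31.6% and 37.9%. Their part in the levels of the 10 genes was not tested. Without that library 6 of 10 genes fell in females and 5 in the mean of both sexes, in place of 3 and 3. Of all 13791 genes tested in that fit, 2218 fell in females and 2892 in the mean of both sexes.

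Ratios within a library do not depend on the scaling between libraries. Per 100 reads of Hspa5 the reads of Atf6 numbered 23.9 to 39.3 in WT and 55.3 to 85.0 in LCHADD, and those of Herpud1 26.9 to 40.2 in WT and 54.9 to 95.5 in LCHADD. Both ranges were apart, as was that of Dnajb9, with 6.79 to 9.34 in WT and 11.4 to 19.3 in LCHADD. All 3 genes already stood apart in normalised read counts, and Hspa5 was lower in the mean of both sexes. These separations are therefore no further evidence. LCHADD females 1, 2 and 3 had close values for Atf6, 84.5, 84.1 and 85.0. For Herpud1 they had 76.7, 57.2 and 95.5 and for Dnajb9 16.2, 19.3 and 16.2, so LCHADD female 2 was the lowest of its group for Herpud1 and the highest for Dnajb9. For the chaperones the ranges over both sexes overlapped, with 27.7 to 32.2 in WT and 30.2 to 43.4 in LCHADD for Hsp90b1, and 3.60 to 4.44 in WT and 3.65 to 5.28 in LCHADD for Pdia4. Within females the genotypes were apart for both, Hsp90b1 with 30.4, 30.6 and 29.9 against 42.4, 33.5 and 43.4, and Pdia4 with 3.97, 3.67 and 3.88 against 5.28, 4.02 and 4.54. In each case LCHADD female 2 was the nearest to WT. A ratio shows that the genes changed unequally, not which of them changed.

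**Figure D3:**
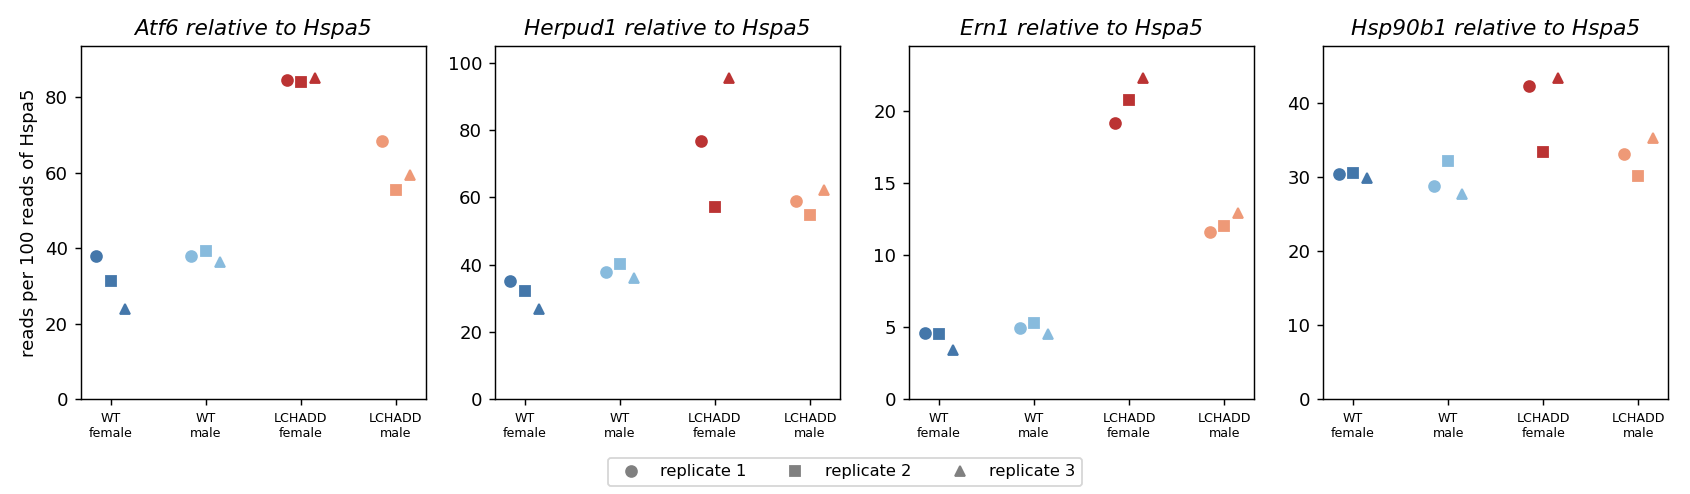
Reads of Atf6, Herpud1, Ern1 and Hsp90b1 per 100 reads of Hspa5 in the same library (vertical axis, from 0), by group, with symbols for the replicate number. The LCHADD libraries lie above the WT libraries for Atf6, Herpud1 and Ern1 and overlap with them for Hsp90b1.

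Per kilobase of exon (GENCODE vM21 models), the order of the 10 genes in WT hearts ran from Hspa5, with 1786 to 2466 normalised read counts per kilobase over the 6 libraries, to Sdf2l1, with 52.1 to 114. Herpud1 (1185 to 1302) and Calr (1110.5 to 1508) came next to Hspa5 and overlapped in range, then Hsp90b1 (546 to 774). Xbp1 (269 to 388), Atf6 (270.3 to 324) and Dnajb9 (235 to 290.5) were not separated by their ranges. Pdia4 (118 to 169) overlapped with Manf (75.1 to 152), and Manf with Sdf2l1. In LCHADD the mean of Herpud1, 1775 per kilobase, stood above that of Hspa5, 1502, whereas in WT the means were 1235 and 1988 per kilobase. That order depends on the exon lengths used, 2333 bases for Herpud1 and 4229 for Hspa5, merged over all transcripts. In reads Herpud1 stayed below Hspa5 in every library, with at most 95.5 per 100 reads of Hspa5.

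The further genes of ER folding and quality control were counted in the mean of both sexes, against the shares of 20.3% higher and 20.6% lower among all genes. Of 17 tested genes of ER-associated degradation, 9 rose and 1 fell, with a median log2 change of 0.19. By sex 6 rose and 1 fell in females, with 16.7% of all genes higher and 17.2% lower. In males 4 rose and 0 fell by limma, edgeR or DESeq2, with 7.71% of all genes higher and 7.77% lower by limma. Derl1, a channel subunit, had the change 0.61 (SE 0.082, adjusted p = 3.0e-05), Edem2, which trims mannose from misfolded glycoproteins, 0.68 (SE 0.11, adjusted p = 0.00016), and Ubxn4, an ER anchor of the VCP segregase, 0.59 (SE 0.11, adjusted p = 0.00045). The one that fell was Erlec1, an ER lectin, -0.24 (SE 0.070, adjusted p = 0.015), named after its value was seen. Its change was -0.37 (SE 0.10, adjusted p = 0.01) in females and did not pass in males, -0.10 (SE 0.10, adjusted p = 0.54). Herpud2, the paralogue of Herpud1, did not pass, 0.19 (SE 0.080, adjusted p = 0.064), nor did the lectin gene Os9, 0.094 (SE 0.064, adjusted p = 0.26).

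Of 25 other ER chaperones and folding enzymes, 9 rose and 1 fell, with a median log2 change of 0.15. By sex 7 rose in females, where 16.7% of all genes did. In males 0 rose by limma or edgeR and 1 by DESeq2, with 5 at an unadjusted p under 0.05. The share of all genes that rose in males was 7.71% by limma. Ero1a (listed as Ero1l), the oxidase that recharges disulfide isomerases, had normalised read counts of 240.2, 226 and 193 in the WT female libraries against 519, 1228 and 439 in the LCHADD female libraries, and 204, 274 and 234 in the male WT libraries against 459, 342 and 323 in the male LCHADD libraries. All LCHADD libraries lay above all WT libraries, and the log2 change was 1.11 (SE 0.19, adjusted p = 0.00034). Fkbp11, a prolyl isomerase of secretory cells, rose by 1.09 (SE 0.19, adjusted p = 0.00037) from low levels, and P4hb, the classical disulfide isomerase, by 0.36 (SE 0.067, adjusted p = 0.00055). In males Ero1a (0.65, SE 0.28, adjusted p = 0.13) and Fkbp11 (0.64, SE 0.27, adjusted p = 0.13) did not pass, and in females the changes were 1.58 (SE 0.28, adjusted p = 0.00048) and 1.53 (SE 0.27, adjusted p = 0.00053). The interaction was 0.93 (SE 0.39, adjusted p = 0.46) for Ero1a and 0.89 (SE 0.38, adjusted p = 0.46) for Fkbp11.

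The isomerase genes Pdia3 (-0.13, SE 0.078, adjusted p = 0.19) and Pdia6 (-0.13, SE 0.084, adjusted p = 0.24) did not pass, and Dnajc3, an inhibitor of PERK and partner of BiP, was the one that fell (-0.24, SE 0.065, adjusted p = 0.009, named after its value was seen). Fibroblast markers, of cells that also use folding enzymes for collagen, summed to 10205 to 11841 in the 6 WT libraries and 6842 to 8927 in the 6 LCHADD libraries, and B and plasma cell markers to 212 to 285 in the 6 WT libraries and 147 to 173 in the 6 LCHADD libraries. Both sums were lower in LCHADD, and their part in the changes of these 25 genes was not tested. Without LCHADD female 2, 3 of these 25 genes fell.

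Of 17 genes of the translocon and signal peptidase, through which new proteins enter the ER, 9 rose and 0 fell by limma's adjusted p, with a median log2 change of 0.17. The count of falls was also 0 at an unadjusted p under 0.05 and by edgeR and DESeq2. By sex 7 rose in females, with 16.7% of all genes higher, and 1 in males, with 7.71% higher. The interaction was called for 0 of the 17 by limma and edgeR and for 2 by DESeq2. At an unadjusted p under 0.05 it was called for 2, beside 1363 of all 13865 genes. Ssr4 (0.57, SE 0.081, adjusted p = 5.5e-05), a subunit of the translocon-associated complex, Sec61g (0.68, SE 0.12, adjusted p = 0.00028), a channel subunit, and Spcs1 (0.30, SE 0.060, adjusted p = 0.001), a signal peptidase subunit, had the smallest p-values, while Srpr (0.048, SE 0.054, adjusted p = 0.51), the receptor of the signal recognition particle, and Spcs3 (0.097, SE 0.087, adjusted p = 0.4) did not pass. In males Ssr4 (0.21, SE 0.11, adjusted p = 0.23) and Spcs1 (0.077, SE 0.085, adjusted p = 0.59) did not pass, whereas in females the changes were 0.93 (SE 0.11, adjusted p = 2.4e-05) and 0.52 (SE 0.085, adjusted p = 0.00028). Their interaction was 0.72 (SE 0.16, adjusted p = 0.15) for Ssr4 and 0.45 (SE 0.12, adjusted p = 0.23) for Spcs1.

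The amino acid stress genes of ATF4 and CHOP moved on another scale. Of 28 tested, 22 rose and 2 fell in the mean of both sexes, with a median log2 change of 1.88, beside 20.3% higher and 20.6% lower among all tested genes. Those that fell were Vldlr (-0.49, SE 0.069, adjusted p = 5.0e-05) and Ddit4 (-0.54, SE 0.19, adjusted p = 0.032), named after their values were seen. The serine enzyme Phgdh changed by 5.80 (SE 0.13, adjusted p = 3.8e-13), the folate enzyme Mthfd2 by 6.81 (SE 0.19, adjusted p = 3.4e-12) and asparagine synthetase, Asns, by 5.98 (SE 0.19, adjusted p = 1.7e-11). Ppp1r15a, which directs the phosphatase of eIF2alpha, did not pass, 0.23 (SE 0.11, adjusted p = 0.11), nor did the secreted glycoprotein gene Stc2, -0.17 (SE 0.11, adjusted p = 0.23). This list was known from earlier results of these data, so its direction is no independent evidence.

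Of 11 tested cytosolic heat shock genes, which serve folding outside the ER, 6 rose and 1 fell in the mean of both sexes. Of all tested genes 20.3% rose and 20.6% fell there. Hsp90ab1 (0.54, SE 0.055, adjusted p = 2.4e-06), Hspa4 (0.43, SE 0.054, adjusted p = 2.0e-05) and Hspa8 (0.38, SE 0.060, adjusted p = 0.00014) rose. These cytosolic relatives of Hsp90b1 or Hspa5 were thus higher in LCHADD while Hspa5 was lower, but another relative of Hspa5, Hspa1b, was lower too. The small heat shock gene Cryab (-0.037, SE 0.055, adjusted p = 0.62) and the co-chaperone gene Bag3 (-0.085, SE 0.061, adjusted p = 0.29) did not pass. The one that fell was Hspa1b, the inducible HSP70 gene (-1.44, SE 0.48, adjusted p = 0.025, named after its value was seen), which has a near-identical copy in Hspa1a, so its count is uncertain. The list's median log2 change was 0.38.

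**Figure D4:**
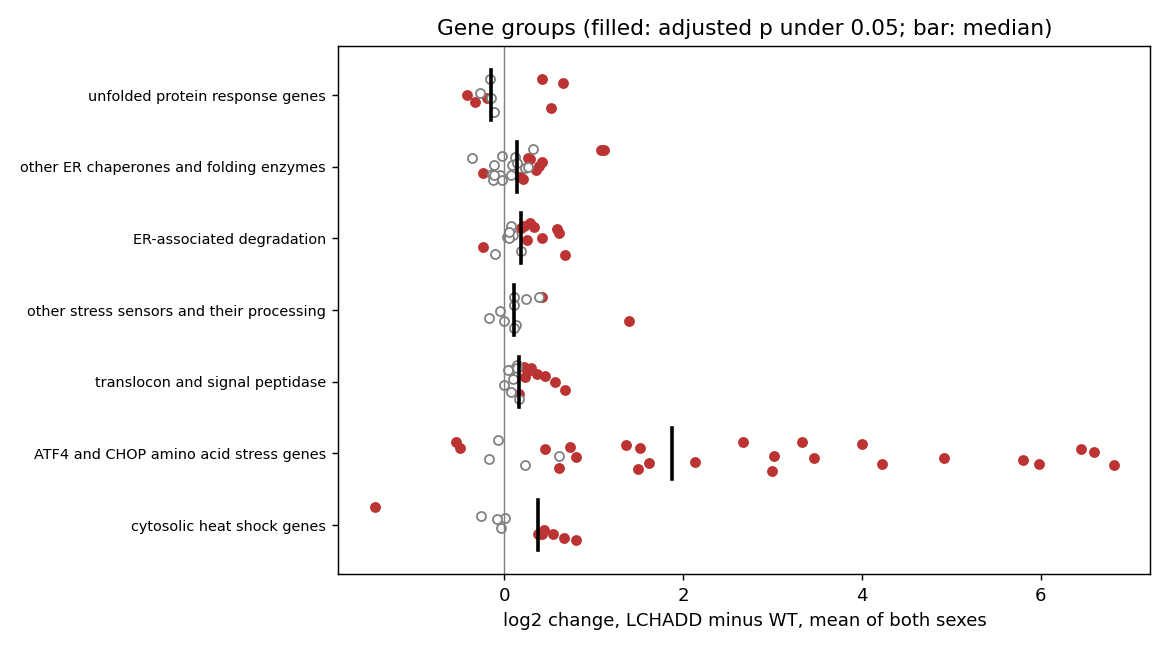
Log2 change of each tested gene, LCHADD minus WT in the mean of both sexes (horizontal axis), for the 10 unfolded protein response genes and 6 other lists (rows, with vertical scatter for legibility only). Filled points have an adjusted p under 0.05 and the black bar is the list's median, which is -0.15 for the 10 genes and 1.88 for the ATF4 and CHOP genes.

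The genes most like Hspa5 were sought by the Pearson correlation of deviations from the 4 group means over 12 libraries, as a description with no test. The 5 nearest of 13864 genes were Dus3l (r = 0.968), Nlrc3 (0.967), Slc19a1 (0.959), Bicral (0.952) and Cpox (0.949). Of the other 9 unfolded protein response genes, Manf ranked 15th (0.931) and Xbp1 43rd (0.909), while Atf6 ranked 1595th (0.625) and Herpud1 6198th (0.0722). Between them came Calr (0.840), Hsp90b1 (0.803), Dnajb9 (0.793), Pdia4 (0.785) and Sdf2l1 (0.768). The points share the scaling of each library. Much of the likeness of Manf and Xbp1 came from WT female 3 and LCHADD female 2, and less of that of Dus3l and Nlrc3. Over the other 10 libraries the r was 0.670 for Manf, 0.574 for Xbp1, 0.575 for Atf6 and 0.214 for Herpud1, so Xbp1 and Atf6 were alike there. It was 0.612 for Calr, 0.601 for Hsp90b1, 0.617 for Dnajb9, 0.624 for Pdia4 and 0.499 for Sdf2l1. For the 5 nearest genes it was 0.916 for Dus3l, 0.911 for Nlrc3, 0.776 for Slc19a1, 0.817 for Bicral and 0.693 for Cpox.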

How the data were processed

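Total RNA from 12 ventricle libraries was analysed from 1 table. Its signal values are the authors' deposited normalised counts, each gene's reads divided by 1 size factor per library, as the spacing of the values shows. The submitters' processing notes name build GRCm39, bcl2fastq and DESeq2 without versions (aligner, counter, annotation and strand: not given in the sources used here). In every library 100.0% of values were whole multiples of 1 step (within 0.01), so whole reads were recovered. Symbols (51633 of 51912 IDs) and exon lengths came from GENCODE vM21 (GRCm38), and promoters from RefSeq.

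The 10 genes and all lists were chosen with earlier results of these data known. Genes with at least 10 in at least 3 libraries (13865) were fitted as log2(value + 1) with limma 3.58.1 (trend) in R 4.3.3, with 4 group means, and called at an adjusted p (Benjamini-Hochberg over these genes) under 0.05. Every adjusted p is limma's unless another tool is named. A change is the log2 mean of LCHADD less that of WT, with limma's SE. Besides the 10 genes, each list gives up to 3 genes that passed with the smallest p and up to 2 most abundant that did not. Alternatives were added values of 5 and 0.5, no filter, a filter at 50, TMM and nuclear-gene scaling, edgeR 4.0.16 and DESeq2 1.42.0 on the recovered reads (5698 and 5644 genes called in the mean of both sexes, 5661 with limma), 1 sex alone, the replicate number as a block, leaving out each library and, added after seeing the data, both WT female 3 and LCHADD female 2.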

Additional observations from a re-analysis of the deposited data

How the results depend on the processing

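Of 900 alternative values of the 10 genes, 828 kept direction and call, 25 lost a call, 16 gained one and 31 changed sign. The rises of Atf6 and Herpud1 in the mean of both sexes, and the fall of Hspa5 there and in females, kept direction and call under every alternative run. The count of members lower in females, 3, was 1 with nuclear-gene scaling and 1 with the females alone, and 1 to 6 when each library was left out. The count lower in males, 0, was 1 with the males alone (Calr, adjusted p = 0.036). Leaving out each library gave 1 to 3 higher in males (against 2), 2 to 5 lower in the mean of both sexes (against 3) and 0 to 1 with a lower change in females by the interaction (against 0), and 1 without both WT female 3 and LCHADD female 2. By DESeq2 Dnajb9 also passed in females (adjusted p = 0.048).

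No value that passed changed sign. The interaction changed sign for Dnajb9 (0.021 with nuclear-gene scaling, 0.0071 with edgeR, 0.0077 with DESeq2), Calr (0.032 with nuclear-gene scaling) and, without WT female 3 and LCHADD female 2, Calr (0.0026). With nuclear-gene scaling Cryab was at 0.0040 in the mean of both sexes. With each library left out, and with that pair left out, the interaction ranged from -0.033 to 0.37 for Atf6, -0.10 to 0.087 for Calr, -0.32 to 0.15 for Dnajb9, -0.51 to 0.025 for Manf, -0.20 to 0.41 for Sdf2l1 and -0.35 to 0.080 for Xbp1. The female change ranged from -0.53 to 0.0048 for Manf and -0.51 to 0.10 for Sdf2l1, and the male change from -0.050 to 0.057 for Hsp90b1 and -0.15 to 0.10 for Manf.

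With the replicate block 5482 genes were called in the mean of both sexes against 5661, and members higher and lower numbered 3 and 2. Deviations of same-numbered libraries correlated at -0.11 to 0.05, within the range of differently numbered ones, -0.12 to 0.15. Such values cannot exclude a pairing, and whether the numbers pair the libraries is not known. Of the other lists, sensors that rose numbered 5 (against 2) with nuclear-gene scaling, other chaperones that fell 4 (against 1) and sensors that fell 1 (against 0) without WT female 3 and LCHADD female 2, and heat shock genes that fell 2 without a filter and 0 with a filter at 50 (against 1). Over all genes, 2146 were called in males, 3333 with the males alone, 3287 without LCHADD female 2, 1328 without WT male 1, 1317 without WT male 3 and 1315 without LCHADD male 1. By the interaction 1 was called with limma, 2 with edgeR and 104 with DESeq2, and 0 to 187 with 1 library left out (187 without LCHADD female 3). The cause of these shifts was not tested. Low read counts limit Sdf2l1, with 40.1 to 126 normalised read counts.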

Other observations

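The ERSE letters were present in the promoter window of 14 tested genes, chosen after the values of Hspa5 and Calr were seen. In females 4 of the 14 were lower by limma (Hspa5, Hsp90b1, Dnajc3 and Acacb) and 0 higher. Of 10418 tested genes with a promoter entry 16.9% were lower and 16.8% higher there. In males 0 were lower and 0 higher, beside 7.68% and 8.07% of genes with an entry. Over both sexes 2 were higher and 4 lower, beside 20.7% and 20.4%. In the mean of both sexes Canx (0.17, SE 0.053, adjusted p = 0.016), the membrane-bound partner of calreticulin, and Pan2, a subunit of a deadenylase, were higher, and Hspa5, Calr, Dnajc3 and Acacb, the acetyl-CoA carboxylase of the mitochondrial surface, were lower. The ERSE genes Pdia6 (-0.13, SE 0.084, adjusted p = 0.24), Creld2 (-0.049, SE 0.13, adjusted p = 0.8) and Syvn1 (-0.097, SE 0.074, adjusted p = 0.32) did not pass. Hspa5, Hsp90b1, Calr, Canx, Dnajc3, Pdia6, Creld2 and Syvn1 belong to the lists above and are not further evidence. The CARE core was present for 250 tested genes, of which 21.6% were higher and 26.8% lower in the mean of both sexes, beside 20.7% and 20.4% of all genes with an entry. The UPRE was present for 95, of which 24.2% were higher and 18.9% lower in that mean. ERSE II was present for 7, Herpud1 among them, of which 3 were higher and 1 lower.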
